A study of Cavia porcellus with 35 samples.

Results

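Deep cortical layer neurons are the projection neurons of layers 5 and 6. Many of them send axons out of the cortex to the thalamus, brainstem and spinal cord. Their identity is set during development by a small network of transcription factors, and much of this network stays on in the mature cortex, so that its transcripts mark these neurons in a tissue sample. A set of 10 marker genes of these neurons, not all of them transcription factors, was followed here by symbol in the medial prefrontal cortex (mPFC) of guinea pigs. They were FEZF2, BCL11B, TBR1, FOXP2, SOX5, TLE4, CTGF, CRYM, NR4A2 and ETV1. A row for 9 of the 10 was found in each of the 4 count tables, among 10949 genes listed in all of them, and TBR1 was not analysed here. The 9 genes passed the filter on low counts in every table. CTGF belongs to the set partly because it was higher in F2 sGC females, so values of the F2 contrast are given as a description and support nothing.

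Each of 35 animals gave 1 library from a punch of mPFC, at postnatal day 40. Pregnant guinea pigs had received several courses of betamethasone, a synthetic glucocorticoid (sGC), or saline (control) in late gestation, and F1 animals are their own offspring, exposed in the womb. F2 and F3 females descended from F1 and F2 males that were mated with untreated females, so that the exposure reached them through the father's line. There were 4 control and 4 sGC females in each of generations F1, F2 and F3, and 5 control and 6 sGC F1 males. The animals had been chosen on the amount and quality of their RNA. The question was whether the deep layer genes differed between sGC and control animals of each table, and whether they moved together from animal to animal.

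Libraries held 12819964 to 31763585 assigned reads, and F1 males were sequenced more deeply (25697953 to 31763585) than females (12819964 to 19551079). The labels give prefrontal cortex as the source, while their extraction text names a hypothalamic nucleus. Markers of cortical excitatory neurons, 7 of 7 listed in every table, summed to 3116 to 8978 CPM (read counts scaled to a library of fixed size) in an animal. The 4 or 5 hypothalamic markers listed, of 9 in that list, summed to 7.53 to 18.8 CPM. Genes of striatal medium spiny neurons summed to 171 to 293 CPM in F2 females and F1 males (9 and 10 genes listed), but to 707 to 2996 CPM in F1 control females (11 genes listed). Each table is 1 sex and generation that was counted on its own, so a table, its sex and its generation cannot be told apart, and levels were not tested across tables. In a bulk punch, fewer cells of a type and less RNA per cell cannot be told apart either.

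**Figure D1:**
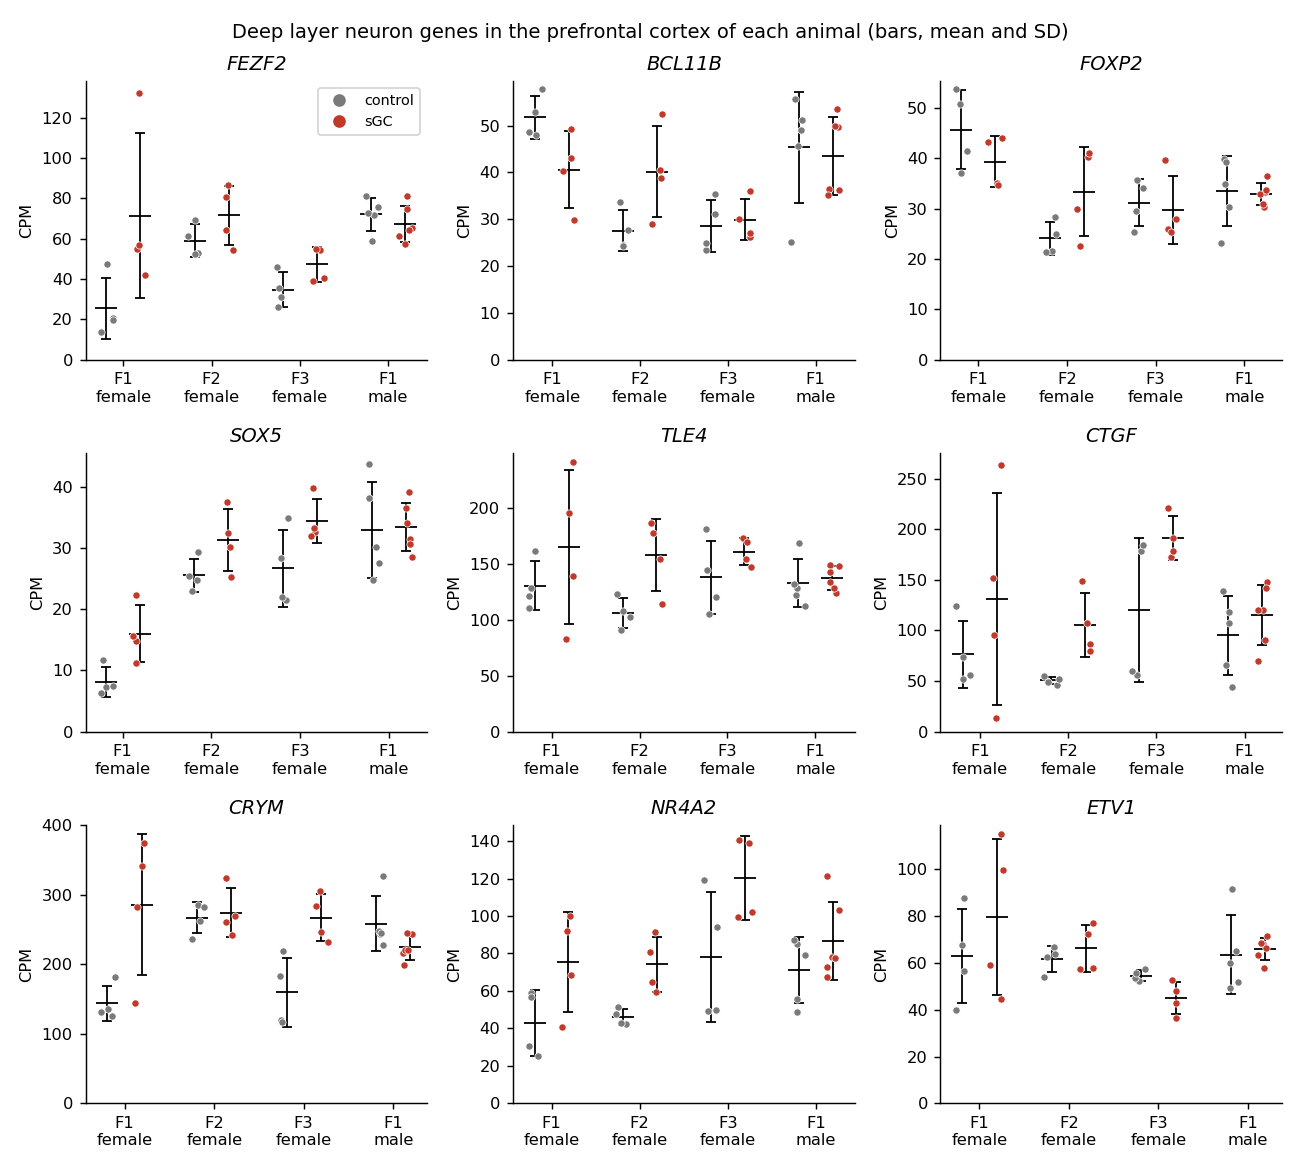
Level of each deep layer gene in every animal, as TMM-normalized CPM on a linear axis from 0. Points are animals, grey for control and red for sGC, bars are the group mean and SD (n = 4 per female group, 5 control and 6 sGC males); CTGF in F1 sGC females has the widest range, 13.6 to 263 CPM.

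The genes differed widely in level and in how much animals of 1 group varied. CRYM was the most abundant in each group's mean, between 144 CPM in F1 control females and 286 CPM in F1 sGC females, and SOX5 lay between 8.19 CPM in F1 control females and 34.4 CPM in F3 sGC females. These levels are not scaled by transcript length, so that they do not rank the genes by abundance of molecules. The narrowest spread was that of ETV1 in F3 control females, in which the highest value was 1.10 times the lowest. The widest was that of CTGF in F1 sGC females, in which the highest value was 19.3 times the lowest. CTGF itself varied least in the F2 controls, in which its highest value, 55.2 CPM, was 1.19 times the lowest. Depth was not limiting for any of these genes, since the smallest read number behind a value was 94, for SOX5.

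In F1 females, exposed directly, SOX5 and CRYM rose in sGC animals to 1.95 and 1.99 times their control level, while BCL11B and FOXP2, which the striatum expresses too, were lower in mean without passing the test. Genes were called where edgeR's quasi-likelihood test gave a false discovery rate (FDR, the p-value adjusted over all 11268 genes tested) under 0.05. By that rule 2 of the 9 genes rose and 0 fell. Of all genes tested, 16.5% passed the threshold in either direction and 9.21% passed it as higher in sGC. The median log2 fold change (sGC minus control) was 0.78 over the 9 genes and -0.03 over all genes. An unadjusted p under 0.05 was reached by 5 of the 9, against 34.2% of all genes. For none of the 9 (0) did all sGC animals lie beyond all controls, an arrangement found for 23.2% of genes in this table.

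SOX5, a transcription factor that times the birth and migration of deep layer neurons, was measured at 6.28, 7.26, 7.43 and 11.8 CPM in F1 control females. The sGC females had 11.3, 14.8, 15.6 and 22.4 CPM. Only the lowest sGC animal fell within the range of the controls, and the log2 fold change was 0.96 ± 0.25 (SE, n = 4 per group; FDR = 0.0329 in edgeR's quasi-likelihood test). CRYM encodes a cytosolic protein that binds thyroid hormone and marks deep layer neurons. Its levels were 125, 132, 136 and 182 CPM in controls, and 145, 282, 342 and 374 CPM in sGC animals. Here too 3 sGC animals were above every control, and the remaining animal was within their range. The mean went from 144 ± 25.7 to 286 ± 101 CPM (SD), a log2 fold change of 0.99 ± 0.26 (SE; FDR = 0.0357 in edgeR's quasi-likelihood test).

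Both calls rested on nearly the whole group. When each of the 8 animals was left out in turn, SOX5 and CRYM stayed under the threshold in 2 of 8 refits each, while their log2 fold changes stayed between 0.76 and 1.22 and between 0.84 and 1.21. SOX5 lost its call without control replicate 2, 3 or 4 or sGC replicate 2, 3 or 4, with an FDR of up to 0.0882 in edgeR's quasi-likelihood test. CRYM lost it without control replicate 1, 3 or 4 or sGC replicate 1, 2 or 4, with an FDR of up to 0.0936 in the same edgeR test.

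FEZF2, the selector gene of layer 5 neurons that project below the cortex, had the largest difference. Control F1 females had 13.8, 19.7, 20.6 and 47.7 CPM, and sGC females had 41.8, 55.1, 56.8 and 132 CPM. The highest control lay above the lowest sGC animal, and 1 sGC animal stood far above the other 3. Its log2 fold change was 1.48 ± 0.46 (SE), with an FDR of 0.0560 in edgeR's quasi-likelihood test, just outside the threshold. The likelihood ratio test of edgeR gave an FDR of 0.0105 and DESeq2 one of 0.0279. In edgeR's quasi-likelihood test it was 0.0167 without control replicate 1, the control with 47.7 CPM, and 0.000274 in a single fit of all 4 tables. FEZF2 stayed outside the threshold when any other animal was left out. It also did so under the other normalizations and filters and with replicate number as a block.

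NR4A2, an orphan nuclear receptor of the deepest cortical neurons and the claustrum, had 25.3, 30.5, 56.8 and 59.1 CPM in controls and 40.5, 68.6, 91.8 and 100 CPM in sGC animals of F1 females. The log2 difference of 0.81 ± 0.34 (SE) did not pass (FDR = 0.132, edgeR's quasi-likelihood test). CTGF, a secreted matricellular protein that marks the sublayer next to the white matter, was at 52.1, 55.5, 73.8 and 124 CPM in controls. In sGC females it was at 13.6, 95.8, 151 and 263 CPM, so that the sGC group held both the lowest and the highest animal of the table. The log2 difference of CTGF was 0.78 with an SE of 0.67. TLE4, a corepressor of layer 6 neurons that project to the thalamus, and ETV1, an ETS factor of layer 5, had log2 differences of 0.34 ± 0.28 and 0.34 ± 0.32 (SE).

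BCL11B and FOXP2 went the other way in mean. BCL11B is a zinc finger factor of layer 5 neurons and also of striatal medium spiny neurons, and 3 of 4 sGC females, at 29.8, 40.3 and 43.1 CPM, were under the lowest control (47.9 CPM). Its log2 difference was -0.35 ± 0.14 (SE; FDR = 0.113, edgeR's quasi-likelihood test). FOXP2, a forkhead factor of layer 6 that is also expressed in the striatum, had a log2 difference of -0.22 ± 0.14 (SE; FDR = 0.281 in the same edgeR test). Neither difference passed the threshold.

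Markers of other cells moved with these values in F1 females. Of 11 striatal medium spiny neuron genes tested, 7 fell in sGC animals, with a median log2 fold change of -1.58, and their sum was 707 to 2996 CPM in controls and 330 to 740 CPM in sGC animals. The transcription factor SIX3 and the opioid precursor gene PENK fell most (log2 -3.82 and -2.37; FDR = 0.0332 and 0.0230, edgeR's quasi-likelihood test). The 7 cortical excitatory markers summed to 3232 to 5476 CPM in controls and 4983 to 8978 CPM in sGC animals, with a median log2 fold change of 1.91 and 1 of 7 called, the synaptic vesicle gene SV2B (log2 1.04; FDR = 0.00652, same edgeR test). An unadjusted p under 0.05 was reached by 6 of the 7, and the likelihood ratio test and DESeq2 each called 5. The animal with the highest FEZF2, at 132 CPM, also had the highest excitatory sum, and the control with 47.7 CPM had the highest excitatory sum among controls. Oligodendrocyte genes, 9 of 11 tested, had 0 calls in edgeR's quasi-likelihood test (3 with an unadjusted p under 0.05, 1 call by its likelihood ratio test and 0 by DESeq2) and summed to 4765 to 16220 CPM in controls and 3739 to 7615 CPM in sGC animals. The part of these lists in the deep layer differences was not tested.

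**Figure D2:**
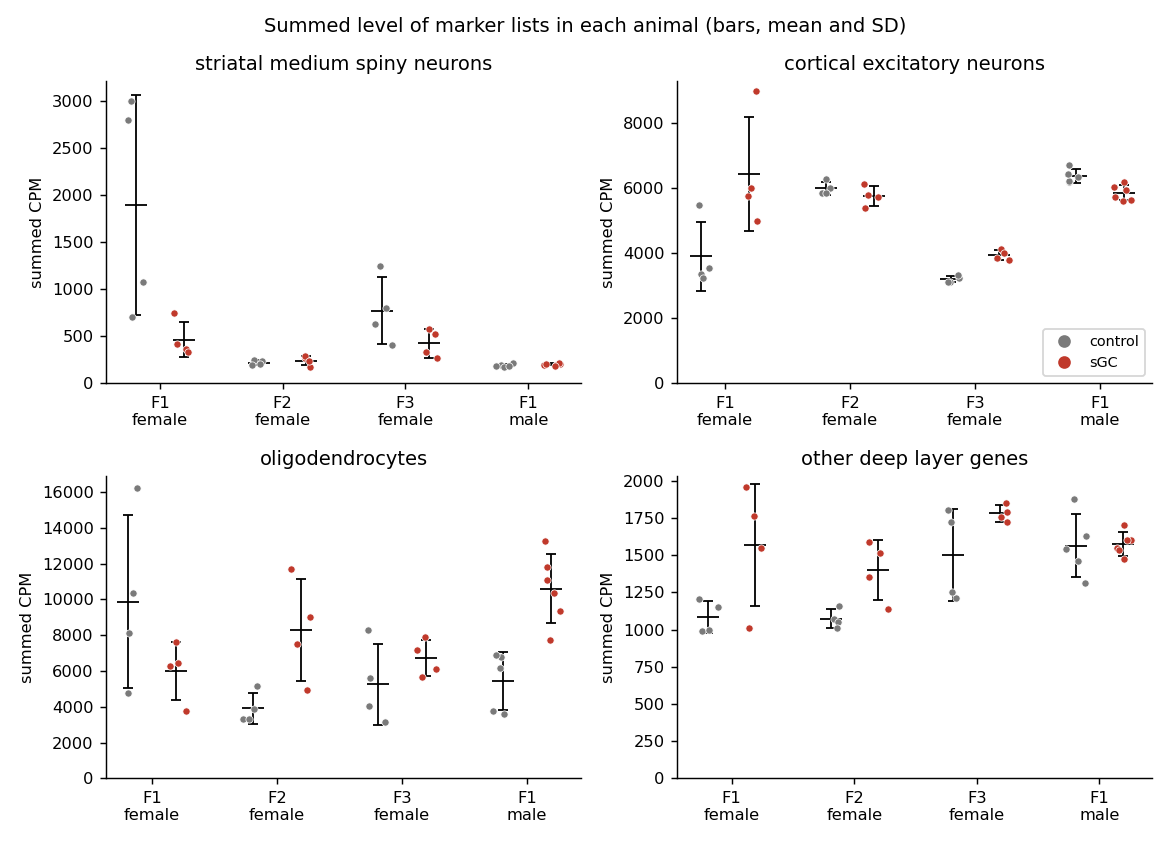
Summed CPM of 4 marker lists in every animal, on linear axes from 0. Points are animals (grey, control; red, sGC), bars are the mean and SD; in F1 females the striatal sum is 707 to 2996 CPM in controls and 330 to 740 CPM in sGC animals.

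Other genes of deep layer neurons, and genes of the same families as the 9, were counted in the same fit. Of 20 other deep layer genes tested in F1 females, 4 rose and 0 fell, with a median log2 fold change of 0.13. ZFPM2, a zinc finger cofactor of corticothalamic neurons, and TSHZ3, a teashirt factor, rose most (log2 1.58 and 0.89; FDR = 0.0418 and 0.00390, edgeR's quasi-likelihood test). Of 14 upper layer genes, 0 were called as higher and 4 as lower. CALB1, which encodes the calcium buffer calbindin, and WFS1 fell most (log2 -1.59 and -0.72, FDR = 0.0246 and 0.0189, same edgeR test). Of the 14, 6 were above 0, with a median log2 fold change of -0.02, against -0.03 over all genes. Their sum was 757 to 1349 CPM in controls and 767 to 1234 CPM in sGC animals. Among 13 paralogs of the set, FOXP4 rose (log2 0.39), and SOX13 and TLE1 fell (log2 -0.48 and -0.96), all with FDR from 0.0149 to 0.0238 in that edgeR test. Of the remaining lists, interneuron genes had 2 of 7 lower, astrocyte genes 4 of 8 lower and genes of vessels and meninges 1 of 11 lower, with 0 higher in each, and the claustrum, hypothalamus and immediate early lists had 0 called in edgeR's quasi-likelihood test. In these 3 lists 2 of 4, 0 of 4 and 1 of 11 genes had an unadjusted p under 0.05, and 1, 0 and 1 were called by the likelihood ratio test as by DESeq2.

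In F3 females, 0 of the 9 deep layer genes passed the FDR threshold in edgeR's quasi-likelihood test, which 1.34% of 11420 genes passed. With edgeR's likelihood ratio test 1 passed, and with DESeq2 also 1, in both CRYM. An unadjusted p under 0.05 was reached by 4 of the 9, FEZF2, SOX5, CRYM and ETV1, against 17.3% of all genes. The median log2 fold change of the 9 was 0.36, against -0.01 over all genes, and 7 of 9 were above 0.

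For 10.3% of all genes the F3 groups did not overlap, and the share of the 9 was close to that. CRYM was the 1 of 9 with this arrangement. Controls were at 117, 121, 183 and 219 CPM and sGC females at 232, 247, 283 and 306 CPM. The log2 difference was 0.74 ± 0.19 (SE; FDR = 0.0941 in edgeR's quasi-likelihood test). The FDR was 0.00810 with the likelihood ratio test and 0.00363 with DESeq2, and it ranged from 0.0152, without control replicate 1, to 0.240 when animals were left out of the edgeR quasi-likelihood fit. SOX5 also passed without that animal (FDR = 0.0385 in the same edgeR test), and had 21.5 to 34.9 CPM in controls and 31.9 to 39.8 CPM in sGC animals, of which 1 was above every control.

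CTGF and NR4A2 split the F3 controls in the same way. CTGF was at 56.4, 60.4, 179 and 184 CPM in controls and at 173, 179, 192 and 221 CPM in sGC females. NR4A2 was at 49.4, 49.6, 94.4 and 119 CPM and at 99.4, 102, 139 and 141 CPM. For both genes, the same 2 controls were low and the other 2 lay within or near the sGC range, and the log2 differences of 0.67 ± 0.37 and 0.62 ± 0.28 (SE) did not pass (FDR = 0.397 and 0.291, edgeR's quasi-likelihood test). ETV1 was lower in mean: 3 of 4 sGC females, at 36.6, 42.9 and 47.9 CPM, were under the lowest control (52.2 CPM), and its log2 difference was -0.28 ± 0.10 (SE; FDR = 0.205, same edgeR test).

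Markers of several cell types differed between the F3 groups in sum or in single genes. The excitatory markers summed to 3116 to 3321 CPM in controls and 3789 to 4121 CPM in sGC females, 5 of 7 without overlap. In edgeR's quasi-likelihood test 0 of the 7 were called, while 5 had an unadjusted p under 0.05 and 5 were called by the likelihood ratio test and by DESeq2. Striatal genes summed to 405 to 1242 CPM and 264 to 577 CPM, with 0 of 11 called in that edgeR test, 7 with an unadjusted p under 0.05, 2 called by the likelihood ratio test and 1 by DESeq2. Oligodendrocyte genes, 8 of 11 tested, summed to 3139 to 8292 CPM in controls and 5638 to 7886 CPM in sGC females, with 0 called by each of the 3 tools and 0 with an unadjusted p under 0.05. Their part in the deep layer values was not tested. Of the 20 other deep layer genes 0 were called in edgeR's quasi-likelihood test (median log2 -0.0013), 3 had an unadjusted p under 0.05, and the likelihood ratio test and DESeq2 called 2 and 1. In the edgeR quasi-likelihood test 1 paralog was called, the ETS factor gene ETV5, which rose (log2 0.54; FDR = 0.0296). Of the remaining lists 1 gene was called, the interneuron gene PVALB, which rose (log2 0.92; FDR = 0.00918, same edgeR test). The interneuron genes had a median log2 fold change of -0.41 and summed to 569 to 777 CPM in controls and 499 to 582 CPM in sGC females. All 7 tested had an unadjusted p under 0.05, and 4 were called by the likelihood ratio test and by DESeq2. Upper layer genes summed to 616 to 959 CPM and 692 to 742 CPM (median log2 -0.16), and of 14 tested 0 were called by edgeR's quasi-likelihood test, 7 had an unadjusted p under 0.05, 4 were called by the likelihood ratio test and 3 by DESeq2.

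In F1 males, the most deeply sequenced animals, none of the 9 (0) was called by edgeR's quasi-likelihood test, its likelihood ratio test or DESeq2, and 9.22% of 11524 genes were called by the first. An unadjusted p under 0.05 was reached by 1 of the 9, CRYM, against 25.2% of all genes. The median log2 fold change was 0.03 over the 9 and -7.3e-05 over all genes, and the differences ran from -0.20 for CRYM to 0.29 for NR4A2. Groups that did not overlap were found for 0 of the 9, against 6.26% of all genes.

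CRYM was at 227, 244, 246, 248 and 327 CPM in control males. In the 6 sGC males, its lowest, median and highest values were 199, 221 and 246 CPM, so that 4 of 6 lay under the lowest control. The log2 difference was -0.20 ± 0.09 (SE; FDR = 0.156, edgeR's quasi-likelihood test). FEZF2 was at 58.7, 71.9, 72.8, 75.9 and 81.2 CPM in control males and at 57.2 to 81.2 CPM in sGC males, which overlapped almost completely (log2 difference -0.10 ± 0.09, SE).

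In these males, oligodendrocyte genes rose as a list, 9 of 9 tested, and summed to 3608 to 6887 CPM in controls and 7732 to 13250 CPM in sGC animals. The striatal list, at 171 to 213 and 185 to 214 CPM, had 0 of 10 called by each of the 3 tools, edgeR's quasi-likelihood and likelihood ratio tests and DESeq2, and 1 with an unadjusted p under 0.05. Of 20 other deep layer genes tested, 2 fell, the peptide gene ADCYAP1 and CRIM1 (log2 -0.68 and -0.26; FDR = 0.0199 and 0.0235, same edgeR test). CRIM1, a transmembrane protein of corticospinal neurons, had risen in F1 females (log2 0.53; FDR = 0.00390). The interneuron genes SST and GAD1 also fell in males (log2 -0.54 and -0.22; FDR = 0.0345 and 0.0293, same edgeR test), and the quasi-likelihood test called 0 genes of the remaining lists. Of these, the upper layer, excitatory and astrocyte lists had 4 of 15, 4 of 7 and 3 of 8 genes with an unadjusted p under 0.05, and the likelihood ratio test called 2, 2 and 3 of them.

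**Figure D3:**
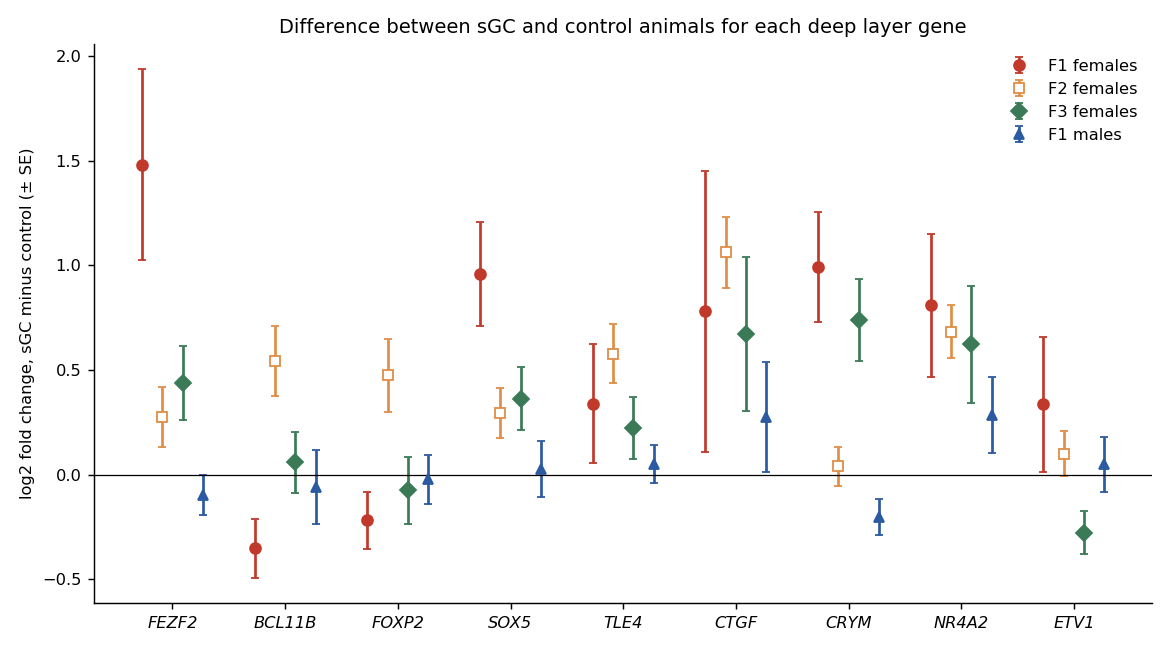
Log2 fold change (sGC minus control) of each deep layer gene, with its SE from edgeR's fit, in the 4 tables. Open squares are F2 females, whose contrast was used to choose CTGF; FEZF2, SOX5 and CRYM are near 1 or above in F1 females (1.48, 0.96 and 0.99) and near 0 in F1 males (-0.10, 0.03 and -0.20).

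The response of F1 males and F1 females was then compared directly, as an interaction in 1 edgeR fit of both tables. For 3 of the 9 genes the response differed by the same rule in edgeR, where 31.7% of 11274 genes did, a share close to that of the 9. The male response minus the female response was -1.20 ± 0.26 for CRYM (FDR = 0.00223), -1.58 ± 0.42 for FEZF2 (FDR = 0.00847) and -0.94 ± 0.28 for SOX5 (SE; FDR = 0.0170, edgeR's quasi-likelihood test). These 3 calls stood in each of 27 refits, under every alternative test, normalization and filter and with each of the 19 animals left out, with an FDR of at most 0.0492 in the edgeR and DESeq2 fits. The other 6 genes had differences between -0.53 and 0.29 on the log2 scale and FDR from 0.311 to 0.608. The striatal sum of F1 females, over 11 listed genes, moved with the female response and was above every male value, over 10 listed genes, in all 8 females. Its part in the difference was not tested.

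Between F1 and F3 females the response of 0 of the 9 genes differed in edgeR's quasi-likelihood test, where 0.0981% of 11212 genes did. By the likelihood ratio test and DESeq2, 0 differed as well. An unadjusted p under 0.05 was reached by 15.8% of all genes and by 0 of the 9. The F3 minus F1 difference of CRYM was -0.27 ± 0.35 and that of FEZF2 -1.06 ± 0.52 (log2, SE).

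In F2 females, whose values helped to choose CTGF and are given as a description, each of the 9 deep layer genes was higher in mean in sGC animals. The log2 differences ran from 0.04 for CRYM to 1.06 for CTGF, with a median of 0.47, and that of CRYM was -0.05 without sGC replicate 1. By the FDR rule 1 of 9 was called, CTGF itself, beside 0.278% of all genes, and 2 of 9 had groups that did not overlap, beside 8.09% of all genes. These counts come from the contrast that chose CTGF, and nothing is read from them. CTGF was at 46.3, 48.7, 52.0 and 55.2 CPM in controls and at 79.4, 86.3, 107 and 149 CPM in sGC females. NR4A2 was at 42.4, 43.1, 47.8 and 51.6 CPM in controls and at 59.6, 64.9, 80.7 and 91.6 CPM in sGC females. In both genes the 4 controls lay close together and every sGC animal was above them.

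Among the remaining F2 values, TLE4 was at 91.0, 103, 108 and 123 CPM in controls and 114, 155, 177 and 187 CPM in sGC females. NR4A2, with a log2 difference of 0.68, and TLE4, with 0.58, came just below CTGF. BCL11B and FOXP2 differed by 0.54 and 0.47 in F2 females, where the striatal sums were 192 to 246 CPM in controls and 171 to 293 CPM in sGC animals. In 3 of the 4 sGC animals both genes were above every control, and the same animal, replicate 2, was low for FEZF2, BCL11B, FOXP2, SOX5, TLE4 and CRYM, the lowest of its group in each. Oligodendrocyte genes, 9 of 9 above 0 in log2 difference, summed to 3320 to 5159 CPM in F2 controls and 4941 to 11713 CPM in sGC females, with replicate 2 again the lowest. Upper layer genes, 2 of 15 above 0 and with a median log2 difference of -0.21, summed to 1054 to 1282 CPM in F2 controls and 816 to 1042 CPM in sGC females, which did not overlap. The part of these lists was not tested.

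Whether the 9 genes moved together from animal to animal was asked after each animal's log2 level had been centred on its group mean, which removes any difference between sGC and control. Over the 35 animals, Pearson's r was computed for all 36 pairs and tested by permuting animals within groups (100000 permutations, two-sided), with p-values adjusted over the 36 pairs by the method of Benjamini and Hochberg. An adjusted p under 0.05 was found for 20 pairs, 18 with r above 0 and 2 below 0. The median r was 0.37 over the 36 pairs, and -0.01 between one of the 9 and any other gene. With Spearman's rho, 16 pairs passed. In 16 of the 20 pairs r had one sign in all 4 tables.

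**Figure D4:**
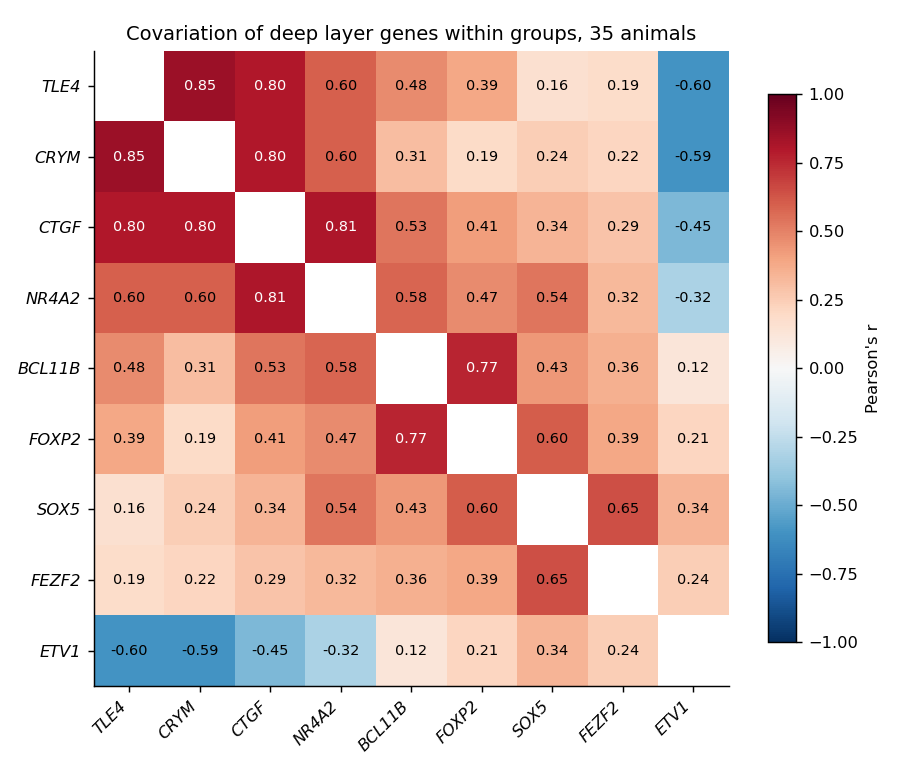
Pearson's r between each pair of deep layer genes over 35 animals, after centring log2 CPM on the mean of each group; red is positive and blue negative, on a scale from -1 to 1. Among TLE4, CRYM, CTGF and NR4A2 r is 0.60 to 0.85, while ETV1 is negative with each of these 4 (-0.60 to -0.32).

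The 4 strongest links were among TLE4, CRYM, CTGF and NR4A2. CRYM and TLE4 had r = 0.85 (permutation p = 2e-05, adjusted p = 0.00024; rho = 0.72, p = 7e-05, adjusted p = 0.00084), and r = 0.76 without the 2 animals farthest from the median. Within the tables r was 0.97 in F1 females, 0.49 in F2 females, 0.83 in F3 females and 0.76 in F1 males. NR4A2 and CTGF, the pair of genes of the deepest neurons, had r = 0.81 (permutation p = 1e-05, the smallest these permutations can give, adjusted p = 0.00024) and rho = 0.86. In the tables r was between 0.74 and 0.91, a lowest value above that of any of the other 35 pairs, and it was 0.79 without the 2 farthest animals.

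CTGF followed TLE4 with r = 0.80 (permutation p = 0.00028, adjusted p = 0.00252; rho = 0.66) and 0.54 to 0.89 in the tables. CTGF and CRYM had the same r of 0.80 (permutation p = 0.00177, adjusted p = 0.00910; rho = 0.59), but it was 0.94 in F1 females and 0.19 in F1 males. NR4A2 and CRYM had r = 0.60 (adjusted p = 0.0277 by permutation). This link did not pass with Spearman's rho (0.47, adjusted p = 0.0643 by permutation), without the F1 female table (adjusted p = 0.217) or without F1 sGC female replicate 3 (adjusted p = 0.116). The SD within groups was wider in F1 females than in any other table for 7 of the 9 genes, and narrowest there for BCL11B and FOXP2. Without the F1 female table, 13 of 36 pairs passed, and CRYM with CTGF (r = 0.60, adjusted p = 0.122), SOX5 with FEZF2 (r = 0.40, adjusted p = 0.126) and NR4A2 with TLE4 (r = 0.54, adjusted p = 0.0709 by permutation) did not. The count was also 13 without the table of F1 males. F1 sGC female replicate 3, the animal with 13.6 CPM of CTGF, lowered the count to 15 when it alone was left out, as did F1 male control replicate 3.

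Outside these 4 genes, the strongest link was another pair. FOXP2 and BCL11B, the factors that cortex and striatum share, had r = 0.77 (permutation p = 2e-05, adjusted p = 0.00024; rho = 0.72), with 0.67 after the 2 farthest animals were left out. Their r was 0.70 in F1 females, 0.87 in F2 females, 0.91 in F3 females and 0.71 in F1 males. SOX5 was linked to FOXP2 (r = 0.60, permutation p = 0.00047, adjusted p = 0.00306; rho = 0.62) and to FEZF2 (r = 0.65, permutation p = 0.00338, adjusted p = 0.0123; rho = 0.55). The latter fell to 0.45 without the 2 farthest animals, and was 0.87 in F1 females and 0.29 in F1 males. FEZF2 and BCL11B, which act in 1 pathway in developing layer 5 neurons, had r = 0.36 (adjusted p = 0.0437 by permutation), and r was -0.18 in F3 females. It did not pass with Spearman's rho (adjusted p = 0.0779 by permutation) or without any one of 16 single animals, with an adjusted p of up to 0.135, reached without F1 male control replicate 3.

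ETV1 was in every pair with r below 0, those with TLE4, CRYM, CTGF and NR4A2. With SOX5, FEZF2, FOXP2 and BCL11B, ETV1 had r from 0.12 to 0.34, and none of these passed. It had r = -0.59 with CRYM (permutation p = 0.00464, adjusted p = 0.0152; rho = -0.45) and r = -0.60 with TLE4 (permutation p = 0.0155, adjusted p = 0.0328; rho = -0.41, adjusted p = 0.0834). In F1 females r was -0.83 and -0.91, and in F1 males -0.53 and -0.49. Without the F1 female table they were -0.23 (adjusted p = 0.318 by permutation) and -0.06 (adjusted p = 0.858 by permutation). Without the F1 male table ETV1 and TLE4 had r = -0.62 (adjusted p = 0.0848 by permutation). Their link also missed the threshold when any one of 6 single animals was left out, F1 control replicates 2 and 4, F1 sGC replicates 1, 2 and 3 and F1 male control replicate 1, with adjusted p of up to 0.0895 by permutation. In F2 females ETV1 and TLE4 had r = 0.48.

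Each gene was set against all other genes tested in the 4 tables, to name up to 3 of those most like it over the 35 animals. These values are given without a test. For CTGF they were CPLX3, a complexin of the deepest cortical neurons (r = 0.94), CACNG5, an auxiliary subunit of AMPA receptors (r = 0.94) and the retinoid receptor gene RXRG (r = 0.91). For NR4A2 they were the potassium channel gene KCNK2 (r = 0.90), NOV (r = 0.88), a paralog of CTGF, and CRTAC1 (r = 0.86), and CTGF came at rank 8 of 10724. CRYM was closest to the neuromedin B receptor gene NMBR (r = 0.93), KIAA1217 (r = 0.92) and NCALD (r = 0.91). TLE4 was closest to SEMA5B (r = 0.93), the nuclear factor gene NFIA (r = 0.92) and EFHD2 (r = 0.91).

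The other 5 genes had different partners. FEZF2 was closest to markers of cortical excitatory neurons in general, NEUROD2 (r = 0.89), EMX1 (r = 0.85) and the vesicular glutamate transporter gene SLC17A7 (r = 0.83). FOXP2 was closest to the dopamine receptor gene DRD1 (r = 0.85), the opioid receptor gene OPRD1 (r = 0.83) and SLC35F3 (r = 0.82). BCL11B had OPRD1 first (r = 0.85), then CACNG2 (r = 0.82) and RPRML (r = 0.81), with FOXP2 at rank 12. Among the genes most like SOX5 were ITGA8 (r = 0.83) and ANO4 (r = 0.78), and ETV1 was closest to YBX3 (r = 0.83), PLEK and GPR153 (both r = 0.82).

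The centred levels were also compared with the centred log2 sum of each of 12 other lists, 108 relations in all, of which 24 had an adjusted p under 0.05 by the same permutations. These relations were chosen after the data were seen. The sum of the other deep layer genes, which includes CPLX3, followed CTGF most closely, with r = 0.93 (permutation p = 1e-05, the smallest possible, adjusted p = 0.00054; rho = 0.91) and 0.88 without the 2 farthest animals. Within the tables that r was 0.99 in F1 females, 0.72 in F2 females, 0.99 in F3 females and 0.86 in F1 males. TLE4, CRYM and NR4A2 had r = 0.88, 0.83 and 0.82 with this sum. BCL11B and FOXP2 also passed with it (both r = 0.57, adjusted p = 0.0171 and 0.00515 by permutation), while FEZF2, SOX5 and ETV1 did not. The sum of the paralogs, which includes NOV, had r = 0.87 with CTGF and 0.82 with NR4A2 (adjusted p = 0.000926 and 0.000648 by permutation). SOX5, BCL11B and FOXP2 had r = 0.64, 0.63 and 0.58 with the paralog sum (adjusted p = 0.0219, 0.00108 and 0.00216 by permutation). FEZF2, TLE4, CRYM and ETV1 did not pass with the paralog sum.

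TLE4 was high where upper layer genes were low, with r = -0.72 (permutation p = 0.00026, adjusted p = 0.00255; rho = -0.71) and -0.48 to -0.94 in the tables. CRYM had r = -0.65 with the same sum (permutation p = 0.0017, adjusted p = 0.0125; rho = -0.63). TLE4 was also high where genes of oligodendrocytes, the myelinating cells, were high (r = 0.72, permutation p = 3e-05, adjusted p = 0.000648, rho = 0.73), with r of 0.62 to 0.86 in each table. CTGF, CRYM, NR4A2 and BCL11B had r = 0.64, 0.57, 0.55 and 0.55 with oligodendrocyte genes, all with adjusted p under the threshold. With Spearman's rho CRYM did not pass (0.46, adjusted p = 0.0802 by permutation), and its r was 0.18 in F1 males. CTGF had r = -0.61 with genes of vessels and meninges (permutation p = 6e-05, adjusted p = 0.000926; rho = -0.60). The depth of a punch was not recorded, so its part in this covariation was not tested.

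**Figure D5:**
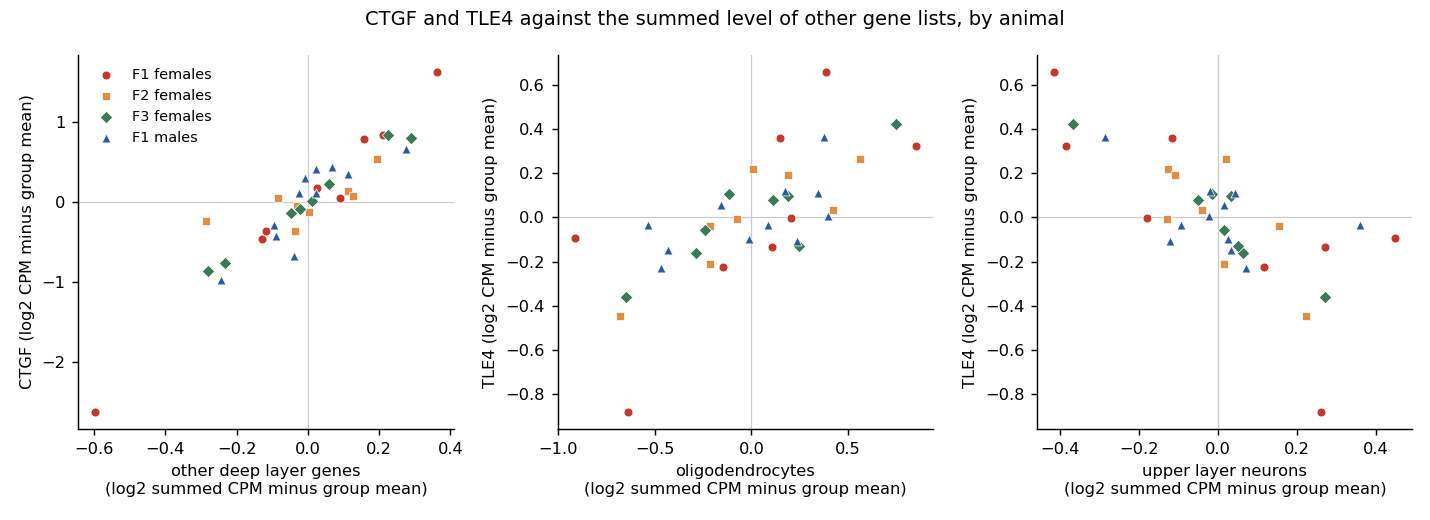
Log2 CPM of CTGF or TLE4 against the log2 summed CPM of a marker list, both centred on the group mean, with 1 point per animal and a colour and shape per table (35 animals). CTGF climbs with the other deep layer genes (r = 0.93), and TLE4 climbs with oligodendrocyte genes (r = 0.72) and falls with upper layer genes (r = -0.72).

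FOXP2 was the one of the 9 linked to the striatal sum at the threshold, with r = 0.50 (permutation p = 0.00631, adjusted p = 0.0310; rho = 0.57), and r was 0.83 in F1 females, 0.96 in F2 females, 0.24 in F3 females and 0.54 in F1 males. FEZF2 had r = 0.74 with the excitatory sum (permutation p = 0.0355, adjusted p = 0.0983, rho = 0.43), and 0.37 without the 2 farthest animals. Its r was 0.91 in F1 females, 0.79 in F2 females, -0.62 in F3 females and -0.19 in F1 males. SOX5 had r = 0.59 with the excitatory sum (adjusted p = 0.0740 by permutation), and 0.31 without the 2 farthest animals. For SOX5 r was 0.89 in F1 females, 0.73 in F2 females, -0.00095 in F3 females and -0.14 in F1 males. FEZF2 and SOX5 each had r = 0.51 with the sum of immediate early genes, which turn on with neuronal activity (adjusted p = 0.0219 and 0.0388 by permutation). With Spearman's rho FEZF2 passed (0.51, adjusted p = 0.0224 by permutation) and SOX5 did not (0.42, adjusted p = 0.0802 by permutation). Without the 2 farthest animals r was 0.50 for FEZF2 and 0.37 for SOX5. For both, r in F1 females was 0.70 or more, while in F2 females it was -0.32 for FEZF2 and 0.13 for SOX5.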

How the data were processed

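Per the labels, RNA from punches was made into TruSeq mRNA libraries, 1 per animal. The source they give is prefrontal cortex, while their extraction text names a hypothalamic nucleus. TopHat2 and edgeR are named in the submitters' processing notes, without versions. The counter, genome build and filter are not given in the sources used here. The authors deposited raw counts, whole numbers of reads for each gene symbol, in 4 tables, 1 for each sex and generation. Columns of their own sGC against control comparison (log2 fold change, mean log2 CPM, likelihood ratio statistic, p-value and FDR) stand beside the counts and were not used. Symbols were matched without regard to case.

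With edgeR 4.0.16 under R 4.3.3, genes were filtered with filterByExpr (minimum count 10, minimum total 15), scaled by TMM and tested within each table by the quasi-likelihood test, with p-values adjusted over all genes tested (Benjamini and Hochberg). Levels are TMM-normalized CPM. Interactions were fitted over the tables compared. Covariation used log2 CPM (prior count 2) of 10725 genes tested in all 4 tables. Labels do not tie animals to litters, so p-values measure the spread between these animals. For females, the authors state that a litter gave a single animal of each sex. They do not say so for males, so males of a shared litter cannot be seen. No pair of libraries within a group agreed within sampling noise (lowest chi-square per degree of freedom 2.80).

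Replicate numbers were not taken as pairs, since 5 of 17 same-numbered control and sGC animals had a correlation of deviations over 0.1 (range -0.33 to 0.34). Alternatives were the likelihood ratio test, DESeq2 1.42.0, RLE and upper-quartile normalization, no filter, a replicate block, CPM above 1, 1 fit of the 8 conditions together, and each animal left out. The fits were tested on simulated counts. The 10 genes and the other lists were chosen with earlier results of these data known. Named genes are the 10, at most 2 risen and 2 fallen most of each other list where it was called, and the 3 genes most like each of the 10. SV2B, CALB1 and similar list genes follow that rule, and CRIM1 in F1 females was named for its male value. How reads of paralogs or of overlapping genes were assigned cannot be seen in the tables. Transcript lengths and sequences were not used. A result that falls under the rule for named genes is not reported here.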

Additional observations from a re-analysis of the deposited data

Results flagged for a closer look

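For 3 of the 9 deep layer genes, where 31.7% of 11274 genes did so, the response to sGC differed between F1 females and F1 males in edgeR's quasi-likelihood test of the interaction, with male minus female log2 differences of -1.20 for CRYM, -1.58 for FEZF2 and -0.94 for SOX5. In F1 females CRYM and SOX5 rose, while FEZF2 had a log2 fold change of 1.48 that did not pass (FDR = 0.0560 in edgeR's quasi-likelihood test). In males the log2 fold changes were -0.20, -0.10 and 0.03. The share of the 9 genes that differed was close to that of all genes.

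A single animal stood apart from the rest of its group in 2 of 72 groups of values of the 9 genes, where chance alone marks about 1 in 20 groups. CRYM was at 327 CPM in 1 control F1 male, against 227 to 248 CPM in the other 4. FEZF2 was at 132 CPM in 1 F1 sGC female, against 41.8 to 56.8 CPM in the other 3.

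Among the sums of other lists, 7 of 96 groups were marked in this way. F1 sGC male replicate 6 had the highest astrocyte (8869 CPM), interneuron (750 CPM) and vessel and meninges (780 CPM) sums of its group. F2 sGC female replicate 4 had the highest astrocyte sum (10104 CPM) and the lowest sum of immediate early genes (857 CPM). In F1 control females, replicate 1 had an excitatory neuron sum of 5476 CPM and replicate 4 a vessel and meninges sum of 628 CPM.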

How the results depend on the processing

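The number of deep layer genes called in F1 females, 2, was 1 with the replicate block, 3 with the likelihood ratio test or DESeq2 and 4 in the single fit of all tables. In F2 females, whose contrast chose CTGF so that the count is a description only, 1 was called, and it was 4 with the likelihood ratio test or DESeq2, 2 with upper-quartile normalization or no filter and 0 in the single fit. In F3 females, where 0 were called, it was 1 with the likelihood ratio test, DESeq2, the replicate block or the single fit. With animals left out in turn, these counts ranged from 0 to 2, 0 to 5 and 0 to 2. In F2 females the count was 5 without sGC replicate 2, 2 without control replicate 1 and 0 without control replicate 2, 3 or 4 or sGC replicate 1 or 3. In F1 males it was 0 in all 19 alternatives, and the interaction counts were 3 and 0 in every alternative. The replicate numbers were not taken as pairs, though the correlations of deviations, from so few animals a group, cannot exclude a pairing. Under the replicate block SOX5 in F1 females had an FDR of 0.0718 and CRYM in F3 females 0.0499, and edgeR called 1080, 53, 67 and 999 genes in F1, F2 and F3 females and F1 males. The block reversed BCL11B in F1 males (log2 0.0145) and the interactions of CTGF (0.0849 with F1 males, 0.479 with F3 females).

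Leaving out animals reversed some differences, all of them outside the threshold. In F1 males the ranges were -0.210 to 0.0250 for BCL11B, -0.128 to 0.0492 for FOXP2, -0.0592 to 0.149 for SOX5, -0.0033 to 0.156 for TLE4 and -0.0257 to 0.219 for ETV1, and in F3 females -0.0410 to 0.174 for BCL11B. In F2 females CRYM ranged from -0.0548 to 0.0931. The interaction of F1 females and males ranged from -0.889 to 0.0817 for CTGF. That of F1 and F3 females ranged from -0.479 to 0.472 for CTGF, -0.0409 to 0.210 for FOXP2, -0.330 to 0.112 for TLE4 and -0.398 to 0.0628 for NR4A2. The r of FEZF2 ranged from -0.0400 to 0.294 with TLE4 and from -0.0154 to 0.324 with CRYM. The number of pairs that covaried, 20, was 13 without F1 females or without F1 males. Without F1 females r reversed for NR4A2 with FEZF2 (-0.107), ETV1 with CTGF (0.0185) and ETV1 with NR4A2 (0.0139), and without F1 males for ETV1 with BCL11B (-0.0841). The cause of these changes was not tested. Depth limited none of the 9 genes, while with 4 animals a group the SE of a log2 fold change reached 0.67, for CTGF in F1 females.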
